A study of Sisymbrium orientale with 12 samples.

Results

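Lines of Sisymbrium orientale, a weedy crucifer related to Arabidopsis, were ranked by how much of their leaf RNA signal belonged to the small chain of Rubisco, and the line-to-line differences that run along this ranking are described here. The 12 lines, all that the series holds, were chosen for contrast by this share itself: 2 lines above 5%, S205 and SP9, were set against the 5 other susceptible lines, and every assembled transcript was correlated with the share over all 12 lines. All lines came from 2 crosses that segregate for resistance to 2,4-D, a synthetic auxin used as a herbicide, and no plant had been treated. Cross A (generation 4) gave the susceptible lines S205, S207 and S242 and the resistant lines R221, R206 and R202. Cross B (generation 3) gave the susceptible lines SP9, SRP1, SP3 and SP7 and the resistant lines RP6 and RP8. Cross and generation therefore cannot be told apart. The RNA came from the youngest expanded leaf of seedlings kept in a growth chamber, and each line gave 1 library. The sources used here do not give the number of plants behind a library, so any spread below is a spread between libraries.

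Rubisco fixes CO2 in the Calvin cycle, and its small chain is encoded by a few nuclear genes that are among the most abundant transcripts of a green leaf. In leaves of Arabidopsis and other plants, cells first divide and then expand, and transcripts of the photosynthetic apparatus accumulate while those of cell division and ribosome production decline. The stomatal lineage, a series of asymmetric divisions in the young epidermis, runs out over the same period. Rubisco also takes up oxygen, and photorespiration is the pathway that recovers the carbon lost in this way.

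The share of the column sum held by the small chain contigs was 6.62% in S205 and 5.17% in SP9, against 4.60% in SRP1, 4.39% in SP3, 4.34% in S207, 4.21% in SP7 and 3.49% in S242. The resistant lines stood at 3.79% in RP6, 3.57% in R221, 3.57% in R206, 3.45% in RP8 and 3.39% in R202. SP9 lay just inside the 5% limit and SRP1 just outside it, 0.570 percentage points apart. The highest share was 1.95 times the lowest. S205 and SP9 averaged 5.90%, against 4.21% ± 0.425 in the 5 other susceptible lines (SD, n = 5), and the resistant lines averaged 3.55% ± 0.152 (SD, n = 5). Because these values picked the lines, they are a description and were not tested.

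**Figure D1:**
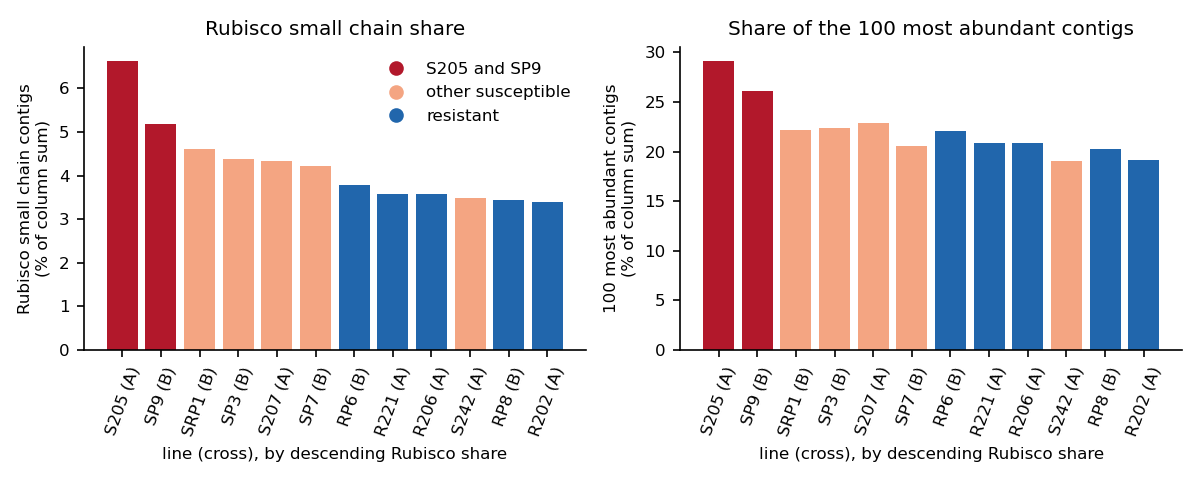
Left, Rubisco small chain contigs as a percentage of the column sum in each line (bars, 1 library each; cross in brackets), in order of descending share. Right, the percentage held by the 100 most abundant contigs in the same order. S205 and SP9 lead both panels, with 6.62% and 5.17% on the left and 29.1% and 26.1% on the right.

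Of 33277 contigs, 7 were annotated as the Rubisco small chain: 3 as RBCS1A (AT1G67090) and 4 as AT5G38410, from both of the assemblies whose contigs the table lists. The contig with the most signal per kilobase, a 759-base contig of AT5G38410, had 27944 CPM (reads scaled to a common library size) in S205 and 19535 CPM in SP9. In the 5 other susceptible lines it had 17694 in SRP1, 15586 in SP3, 16090 in S207, 15579 in SP7 and 10782 in S242. All 7 contigs were higher in S205 and in SP9 than in each of these 5 lines, with log2 differences of the group means between 0.64 and 1.62. Contigs of the same gene can share reads, so the 7 are not separate observations.

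Sequencing depth did not follow the ranking. The libraries held 100976475 to 145936928 recovered reads, with 136691804 in S205 and 128121649 in SP9, so that 3 reads corresponded to 0.0196 to 0.0299 CPM, and the correlation of depth with the share after subtracting the mean of each cross and phenotype was -0.05. The 100 most abundant contigs held 29.1% of the signal in S205 and 26.1% in SP9, against 19.0% to 22.9% in the 5 other susceptible lines and 19.1% to 22.0% in the resistant lines, with a correlation of 0.96 with the share. Column sums followed the share likewise (r = 0.95), from 915639 in S242 to 1180044 in S205. A scaling to equal totals is given below, but it also leaves out the small chain contigs. The part of the column sums alone in the differences below was not tested. In the first components of log2(CPM + 0.5), the second (18.8% of the variance) had a correlation of size 0.90 with the share, while the first (29.8%) had 0.19. With group means subtracted, the first component (30.1%) reached 0.94.

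A wide part of the transcriptome set S205 and SP9 apart. Of 31337 contigs that reached 1 CPM in 5 or more libraries, 5484 (17.5%) were higher in both lines than in all 5 other susceptible lines and 5944 (19%) were lower in both. Summed by Arabidopsis locus, the counts were 3319 of 16051 loci (20.7%) higher and 3538 (22%) lower. Without SP9 the rule asks only that S205 lie outside the others, which held for 9842 contigs higher and 10145 lower. The ranking chose this contrast, so nothing is read from these counts. They are the background for the gene lists below, in which a locus counts as higher or lower by the same rule and differences are on the log2(CPM + 0.5) scale, the mean of S205 and SP9 minus the mean of the 5 others. The median difference over all loci was 0.01. Each library was also scaled to equal totals of the contigs other than the small chain. The median over all loci then moved by -0.16, and the contig counts became 2958 higher and 9427 lower. Each difference below is to be set against that shift, which depends on the scaling. Median-ratio scaling, an alternative, moved the median by 0.001 and gave 5554 contigs higher and 5873 lower. The scaling to equal totals left out the small chain contigs and also undid the deposited scaling with its unequal column sums. Leaving out these contigs alone raises the scaled values of S205 and SP9, which had the highest shares. The shift down therefore lies in the equal totals, as column sums were largest in these lines. The size of each part was not tested. In whole leaves, fewer cells of a type and less RNA per cell cannot be told apart.

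The factors that build and activate Rubisco split in 2 directions. Of 10 measured, 4 were higher in S205 and SP9 and 3 were lower. RBCX2, a chaperone of large chain assembly, had 186 CPM in S205 and 98.5 CPM in SP9, against 75.3 in SRP1, 70.4 in SP3, 91.2 in S207, 64.1 in SP7 and 55.6 in S242. The resistant lines had 78.6 in RP6, 77.9 in R221, 76.3 in R206, 67.8 in RP8 and 67.0 in R202. S205 lay far above the 5 others and SP9 just above S207, the highest of them. Rubisco activase (RCA), which clears inhibitory sugar phosphates from the enzyme, had 14228 CPM in S205 and 9798 CPM in SP9, against 5279 to 8018 CPM in the 5 others. RBCX1 and BSD2, an assembly factor, were also higher (differences of 0.90 and 0.35). The plastid chaperonin subunits that fold the large chain were on the other side: CPN60B2 had 620.2 CPM in S205 and 708 CPM in SP9, against 915 to 1193 CPM in the 5 others, and CPN60A1 and CPN60B1 differed by -0.40 and -0.26.

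Genes of photosynthetic electron transport were higher almost throughout. Of 32 measured loci of the photosystems, the cytochrome b6f complex, ferredoxin and the ATP synthase, 29 were higher in both lines and 0 lower, with a median difference of 0.68. Their summed signal was 68348 CPM in S205 and 55405 CPM in SP9, against 30669 to 43156 CPM in the 5 others and 26634 to 42034 CPM in the resistant lines. The median was 0.86 for S205 against the other susceptible lines of its own cross and 0.48 for SP9 against those of its own. PSBW, a small subunit of photosystem II, had 268 CPM in S205 and 143 CPM in SP9, against 66.7 to 108 CPM in the 5 others, and FNR1, the leaf ferredoxin reductase that makes NADPH, had 3476 CPM in S205 and 2103 CPM in SP9, against 1035 to 1598 CPM. The plastocyanin gene PETE1 and the leaf ferredoxin gene FD2 differed by 0.96 and 0.89, and FD2 in SP9 (1265 CPM) lay below SP7 (1307 CPM). PSBQ1, of the oxygen-evolving complex, had the largest difference of the list (2.06), but this rests on its low level in 4 lines of cross A, with 75.4 CPM in S207, 67.2 in S242, 60.2 in R221 and 70.3 in R206, against 637 to 1625 CPM in the other 8 lines.

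The antenna proteins behaved less evenly than the complexes they feed. Of 18 measured light-harvesting loci, 6 were higher in both lines and 0 lower, with a median difference of 0.47, and here SP9 was further from its cross (0.68) than S205 from its own (0.24). Among the minor antenna genes, LHCB4.3 had 3379 CPM in S205 and 1856 CPM in SP9, against 1219 in SRP1, 1156 in SP3, 1343 in S207, 1057 in SP7 and 1003 in S242, and its correlation with the share was 0.96. LHCA6 had a correlation of 0.92, but at 235 CPM SP9 lay just below S207 (243 CPM), so it did not count as higher. The genes of the major trimer differed among themselves. LHCB1.2 was higher in both lines, with 5396 CPM in S205 and 4129 CPM in SP9, against 2212 to 3691 CPM in the 5 others, and LHCB1.1 lay above the mean of the other susceptible lines of its cross in S205 (by 0.24) and in SP9 (by 0.70). LHCB1.3, named after its values were seen, had 3298 CPM in S205 and 10610.3 CPM in SP9, against 6901 in SRP1, 8677 in SP3, 7897 in S207, 6278 in SP7 and 5358 in S242. SP9 thus had the highest value of the 12 lines and S205 the second lowest. LHCB1.4 and LHCB2.3 likewise lay below that mean in S205 (by -1.097 and -1.34) and above it in SP9 (by 0.38 and 1.07). LHCB1 genes are near-identical copies, so reads may have been split between them.

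Genes of carbon fixation and photorespiration were higher nearly throughout. In the Calvin cycle, 15 of 16 loci were higher in both lines and 0 lower (median 0.73), the exception being the aldolase FBA3 (0.06). GAPB, a subunit of the dehydrogenase that spends NADPH in the cycle, had 3900.4 CPM in S205 and 2244 CPM in SP9, against 1702 in SRP1, 1586 in SP3, 1717 in S207, 1441 in SP7 and 1099 in S242. Among resistant lines it had 1493 in RP6, 1447 in R221, 1353 in R206, 1247 in RP8 and 1116 in R202. The 2 lines lay above all others, and the 10 others overlapped between phenotypes. CP12-2, a linker protein that holds enzymes of the cycle inactive in the dark, differed by 1.298, the aldolase FBA1 by 1.103 and sedoheptulose bisphosphatase (SBPASE) by 0.86. All 15 photorespiratory loci were higher in both lines, with a median difference of 0.97 and summed signals of 33098 CPM in S205 and 20702 CPM in SP9, against 10903 to 16214 CPM in the 5 others and 10739 to 14811 CPM in the resistant lines. PLGG1, the chloroplast carrier for glycolate and glycerate, had 1059 CPM in S205 and 487 CPM in SP9, against 330.3 in SRP1, 335 in SP3, 378 in S207, 285 in SP7 and 247 in S242. AGT1, a peroxisomal aminotransferase, had 3211 CPM in S205 and 1859.9 CPM in SP9, against 804 to 1379 CPM in the 5 others. HPR1, GOX1 and the glycine decarboxylase gene GLDP1 differed by 1.19, 1.203 and 1.019.

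Most loci of starch and sucrose metabolism were higher too. Of 29 loci, 21 were higher in both lines and 1 lower (median 0.61). SPS4F, a sucrose phosphate synthase, had 201.9 CPM in S205 and 74.6 CPM in SP9, against 33.7 in SRP1, 34.7 in SP3, 28.9 in S207, 21.3 in SP7 and 12.6 in S242. The resistant lines had 41.3 in RP6, 36.5 in R221, 24.1 in R206, 30.2 in RP8 and 12.1 in R202. Its difference of 2.29 was the largest positive one among the measured loci of all lists. BAM3, a chloroplast amylase that releases maltose from starch, had 496 CPM in S205 and 253 CPM in SP9, against 91.7 to 153 CPM in the 5 others, and the maltose exporter MEX1 had 222 CPM in S205 and 167 CPM in SP9, against 58.3 to 109 CPM. The cytosolic fructose bisphosphatase, which commits carbon to sucrose, differed by 1.19. The 1 locus that was lower was GPT2, a glucose 6-phosphate carrier of the plastid envelope, with 10.8 CPM in S205 and 7.14 CPM in SP9, against 11.2 to 48.2 CPM in the 5 others, of which S207 at the low end was close to S205.

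Chlorophyll synthesis and plastid gene expression followed the share only in part. Of 19 chlorophyll loci, 7 were higher in both lines and 1 lower (median 0.23). PORC, which reduces protochlorophyllide in the light, had 663 CPM in S205 and 486 CPM in SP9, against 321 to 397 CPM in the 5 others. GLK1, a transcription factor for chloroplast genes, differed by 0.60, and HEMC, an early enzyme of the pathway, by -0.33. Of 14 plastid expression loci 2 were higher and 1 lower. Their median of 0.15 became -0.02 in the scaling to equal totals without the small chain contigs. The largest difference was that of SIG5, a sigma factor of the plastid RNA polymerase, with 23.5 CPM in S205 and 13.2 CPM in SP9, against 4.43 to 8.04 CPM in the 5 others. SIG1 was the other higher locus (0.53) and RPOTP, the phage-type polymerase, the lower one (-0.36).

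**Figure D2:**
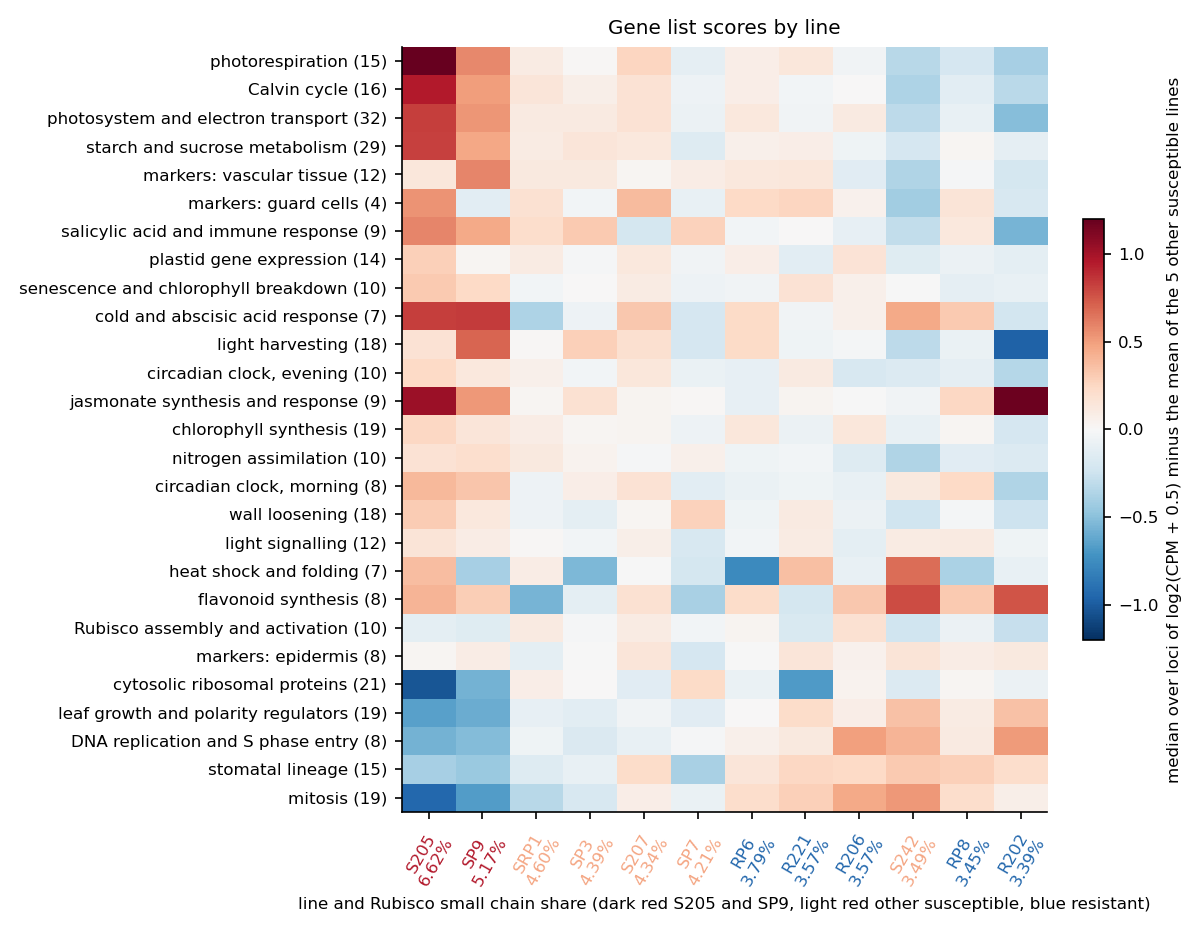
Median over the measured loci of each list (number in brackets) of log2(CPM + 0.5) minus its mean over the 5 other susceptible lines, by line in order of descending share. Photorespiration had a score of 1.31 in S205 and 0.58 in SP9, and mitosis -0.95 in S205 and -0.67 in SP9; jasmonate genes had 1.03 in S205, 0.52 in SP9 and 1.17 in R202, which has the lowest share.

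Toward the other end of the list scores stood cell division. Of 19 mitotic loci, 0 were higher and 17 lower in both lines, with a median difference of -0.79. Their summed signal was 290 CPM in S205 and 350 CPM in SP9, against 433 to 833 CPM in the 5 others and 629 to 774 CPM in the resistant lines. NACK1, a kinesin needed to build the new cell wall at cytokinesis, had 16.4 CPM in S205 and 24.9 CPM in SP9, against 36.4 in SRP1, 40.1 in SP3, 48.9 in S207, 42.0 in SP7 and 67.9 in S242. Among resistant lines it had 53.4 in RP6, 66.6 in R221, 64.2 in R206, 54.5 in RP8 and 59.2 in R202. In each cross the susceptible lines stood in the reverse of their order by share. MAP65-3, which bundles microtubules at the division plane, had 23.4 CPM in S205 and 33.7 CPM in SP9, against 44.4 to 91.3 CPM in the 5 others, and the cyclins CYCB2;2, CYCB1;2 and CYCA1;1 differed by -1.06, -1.03 and -0.995. The 2 members that did not count as lower were CDKB1;1 (-0.38) and CDKB2;1 (-0.21). For S205 the median was -1.25 within its own cross and for SP9 -0.42. Of 8 loci of DNA replication and entry into S phase, 0 were higher and 6 lower (median -0.58), among them the cyclin CYCD3;1 with 26.0 CPM in S205 and 19.5 CPM in SP9, against 28.2 to 106 CPM in the 5 others, and the helicase subunit MCM2 with 34.6 CPM in S205 and 36.7 CPM in SP9, against 56.3 to 79.9 CPM.

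Regulators of the stomatal lineage and of young leaf growth were lower as well, though not all of them. Of 15 stomatal loci, 8 were lower and 1 higher (median -0.43). SPCH, the factor that starts the lineage, had 5.85 CPM in S205 and 5.70 CPM in SP9, against 12.1 in SRP1, 11.99 in SP3, 14.8 in S207, 11.0 in SP7 and 18.24 in S242. POLAR and BASL, which mark the polar side of dividing precursors, and the signal peptide EPF2 differed by -1.21, -0.96 and -1.020. MUTE and FAMA, which act later in the lineage, were not outside the range of the 5 others, with differences of -0.21 and 0.20. EPFL9, the stomatal signal that mesophyll cells make in Arabidopsis, was the 1 locus that was higher (0.26). Of 19 growth and polarity regulators, 0 were higher and 13 lower (median -0.66). The growth-regulating factor GRF1 had 13.4 CPM in S205 and 17.6 CPM in SP9, against 27.2 in SRP1, 31.0 in SP3, 39.5 in S207, 26.7 in SP7 and 58.3 in S242. Its coactivator GIF1 differed by -1.11, GRF2 by -1.12, GRF3 by -0.98 and AS2, which patterns the upper leaf side, by -1.18.

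Cytosolic ribosomal proteins formed the list with the highest proportion of lower members, 20 of 21, with a median difference of -0.80. Their summed signal was 4721 CPM in S205 and 6453 CPM in SP9, against 8488 to 11212 CPM in the 5 others. The resistant line R221, whose share is near the bottom of the ranking, had 6177 CPM, and the other 4 resistant lines had 8996 to 9771 CPM. RPL4D had 64.3 CPM in S205 and 105 CPM in SP9, against 197 in SRP1, 173 in SP3, 146 in S207, 216 in SP7 and 133 in S242. The resistant lines had 161 in RP6, 107 in R221, 178 in R206, 177 in RP8 and 173 in R202. R221 was thus close to SP9. RPL18C, RPS5A, RPL3A and RPL10A differed by -0.94, -0.86, -0.88 and -0.87.

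**Figure D3:**
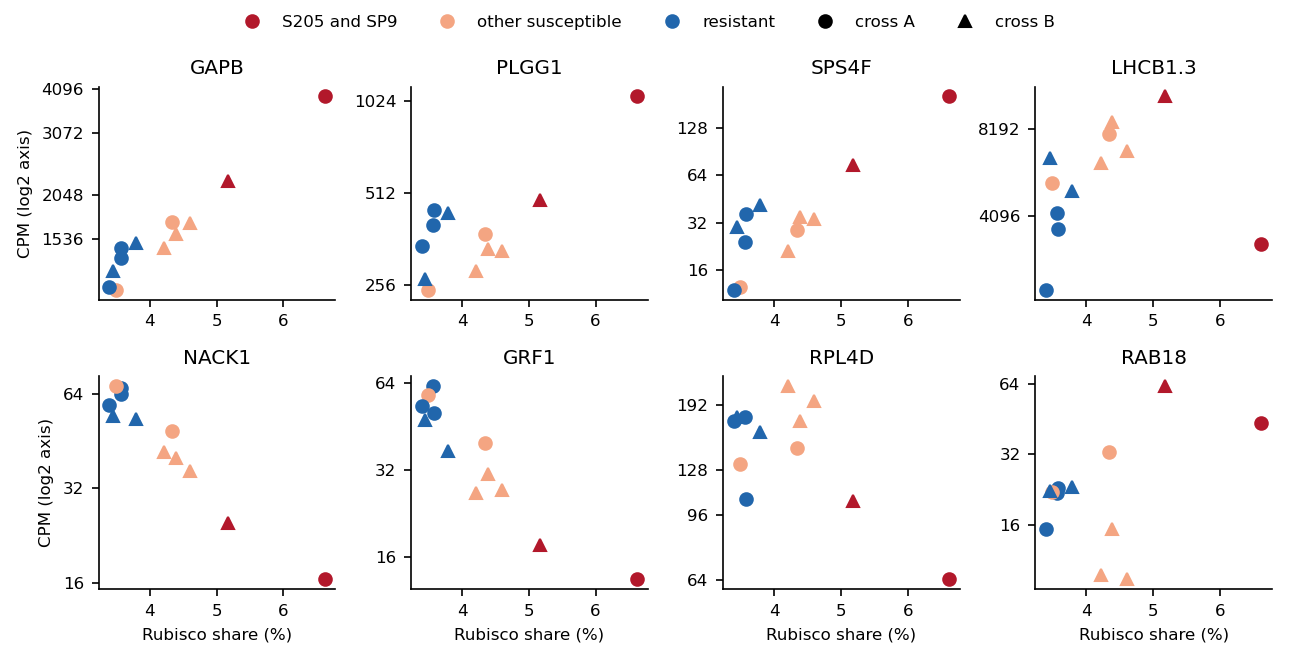
CPM (log2 axis) of 8 loci against the Rubisco small chain share in the 12 lines (1 point per library; circles cross A, triangles cross B). GAPB, PLGG1 and SPS4F are highest and NACK1 and GRF1 lowest in S205 and SP9; LHCB1.3 is low in S205 and high in SP9, RPL4D in R221 is close to SP9, and RAB18 is higher in SP9 than in S205.

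Several stress and hormone lists were higher in the 2 lines, on few members, since many had no contig above the filter. For abscisic acid and cold, 7 of 17 loci were measured and 5 were higher and 0 lower (median 0.996), with SP9 further from its cross (1.21) than S205 from its own (0.69). RAB18, a dehydrin, had 43.2 CPM in S205 and 62.6 CPM in SP9, against 9.35 in SRP1, 15.3 in SP3, 32.8 in S207, 9.71 in SP7 and 22.2 in S242. S207 lay between the other susceptible lines and S205 here. COR15B went the other way, with 51.9 CPM in S205 and 13.2 CPM in SP9, against 7.95 to 10.9 CPM in the 5 others, so that it was mainly S205 that stood out. For salicylic acid, 9 of 16 loci were measured, 5 higher and 0 lower (median 0.52), WRKY70 with 15.0 CPM in S205 and 12.03 CPM in SP9, against 3.28 to 7.87 CPM in the 5 others. For jasmonate, 9 of 14 were measured, 5 higher and 0 lower (median 0.61), and the lipoxygenase LOX2 had 6609 CPM in S205 and 3993 CPM in SP9, against 1196 in SRP1, 2931 in SP3, 2234 in S207, 1043 in SP7 and 1583 in S242. Among resistant lines it had 1343 in RP6, 1799 in R221, 1762 in R206, 3231 in RP8 and 6465 in R202. R202, the line with the lowest share, was thus close to S205, and above SP9. Senescence and chlorophyll breakdown had 4 of 10 measured loci higher and 0 lower (median 0.33), among them the chlorophyll b reductase NYC1 (0.61) and PAO (0.60). Loci of this list differed in which line stood out. In S205, 2 genes that mark senescing tissue were within the range of the 5 others, and in SP9 they were above it. DIN1 had 2.52 CPM in S205 and 4.36 CPM in SP9, against 2.02 to 3.14 CPM in the 5 others, and BFN1 had 6.18 CPM in S205 and 10.9 CPM in SP9, against 5.05 to 9.46 CPM. BCB and NYE1 showed the reverse. BCB had 10.2 CPM in S205 and 3.55 CPM in SP9, against 2.198 to 6.73 CPM in the 5 others. NYE1 had 68.1 CPM in S205 and 52.9 CPM in SP9, against 40.7 to 54.04 CPM.

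In the remaining lists the percentage of higher loci did not exceed that over all loci (20.7%). For lower loci only heat shock, with 28.6%, exceeded the percentage over all loci (22%). Wall loosening had 3 of 18 higher and 3 lower: the expansins EXPA8 and EXPA11 differed by 1.54 and 1.37, and the wall enzymes XTH16, XTH15 and XTH9 by -2.27, -1.98 and -1.50. All 3 XTH loci were highest in SRP1 and SP7 among the 5 others. XTH16 had 12.6 CPM in S205 and 15.7 CPM in SP9, against 193 in SRP1, 37.2 in SP3, 28.4 in S207, 273 in SP7 and 29.8 in S242. XTH15 had 6.07 CPM in S205 and 14.0 CPM in SP9, against 69.8 in SRP1, 20.9 in SP3, 21.7 in S207, 97.9 in SP7 and 25.2 in S242. XTH9 had 206.9 CPM in S205 and 360.1 CPM in SP9, against 1212 in SRP1, 1226 in SP7 and 498 to 637 CPM in the other 3. Nitrogen assimilation had 2 of 10 higher, both of the plastid ammonia pathway, GLN2 (0.74) and GLU1 (0.55). Its median of 0.15 became -0.02 in the scaling to equal totals without the small chain contigs. Morning clock genes had 1 of 8 higher (median 0.29), and evening clock genes had 2 of 10 higher, ELF4 with 198 CPM in S205 and 110.3 CPM in SP9, against 59.0 to 102 CPM in the 5 others, with a median of 0.16 that became -0.01 in that scaling. Light signalling had 2 of 12 higher (median 0.03, and -0.14 in that scaling). Heat shock had 2 of 7 lower (median -0.06), and flavonoid synthesis 1 of 8 higher, the chalcone synthase CHS (0.56), with list medians of -0.40 for S205 and 0.45 for SP9 within their own crosses. The part of harvest time in these values was not tested.

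Markers of cell types other than mesophyll were read beside these lists. Of 12 vascular loci, 4 were higher and 0 lower (median 0.36), with summed signals of 767 CPM in S205 and 819 CPM in SP9, against 391 to 593 CPM in the 5 others and 426 to 574 CPM in the resistant lines. The 4 were loci of the phloem. SWEET11, a sucrose exporter, had 46.8 CPM in S205 and 22.4 CPM in SP9, against 10.2 in SRP1, 6.04 in SP3, 7.80 in S207, 7.98 in SP7 and 3.37 in S242. The phloem sucrose carrier SUC2 had 151 CPM in S205 and 92.3 CPM in SP9, against 20.9 to 63.5 CPM in the 5 others, and SWEET12 and the phloem factor APL differed by 1.47 and 0.64. Of the xylem loci, XCP1 had 137 CPM in S205 and 185 CPM in SP9, against 92.9 to 141 CPM in the 5 others, and IRX3, a cellulose synthase of secondary walls, had 31.2 CPM in S205 and 46.0 CPM in SP9, against 22.9 to 33.5 CPM, so that SP9 was above all 5 and S205 within their range. Of 8 epidermal loci, 2 were higher and 1 lower. Their summed signals were 1369 CPM in S205 and 1810 CPM in SP9, against 1166 to 1560 CPM in the 5 others and 1141 to 1258 CPM in the resistant lines. The median of 0.02 became -0.15 in the scaling to equal totals without the small chain contigs. The 2 higher loci were CER6 and TTG1. CER6 had 28.1 CPM in S205 and 35.0 CPM in SP9, against 13.2 to 26.0 CPM in the 5 others. TTG1 had 65.0 CPM in S205 and 56.3 CPM in SP9, against 40.3 to 50.9 CPM. The lower one was GL1, which starts leaf hairs in Arabidopsis: it was listed at 0 in S205, where 3 reads would give 0.0259 CPM, and at 0.153 CPM in SP9, against 1.59 to 8.64 CPM in the 5 others and 4.13 to 8.58 CPM in the resistant lines. Of 4 guard cell loci 0 were higher and 0 lower, with a median of 0.56 for S205 and -0.12 for SP9 within their own crosses, and sums of 115 CPM in S205 and 70.6 CPM in SP9, against 56.7 to 96.7 CPM in the 5 others and 73.1 to 93.1 CPM in the resistant lines. No contig of the 4 shoot meristem markers was annotated. The part of a different mix of tissues in the differences above was not tested.

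Outside the lists, the loci with the largest differences among those with a mean of at least 5 CPM were mixed in function. The glycine-rich protein gene AT2G05440 had 119 CPM in S205 and 45.6 CPM in SP9, against 5.01 in SRP1, 11.7 in SP3, 7.79 in S207, 8.74 in SP7 and 4.70 in S242. Its neighbour in name, AT2G05380, another glycine-rich protein gene, had nearly the same values (108 CPM in S205 and 45.0 CPM in SP9), and the 2 may share reads. The iron superoxide dismutase gene AT4G25100, for an enzyme that removes superoxide, had 823 CPM in S205 and 593 CPM in SP9, against 15.2 to 168 CPM in the 5 others. The lipid transfer protein gene AT5G59310 (LTP4) had 315 CPM in S205 and 370.3 CPM in SP9, against 23.7 to 141 CPM, and the lupeol synthase gene AT1G78960 had 52.2 CPM in S205 and 7.39 CPM in SP9, against 1.79 to 5.47 CPM. SP9 was the higher of the 2 lines in LTP4 and S205 in lupeol synthase. The rest of the 12 higher loci, AT5G42530, AT5G37300, AT3G44990, AT1G52342, ATMG00140, AT1G62510 and AT2G34060, had differences of 2.34 to 3.09. Among the lower loci, the oxygenase-family gene AT1G03410 had 23.3 CPM in S205 and 29.5 CPM in SP9, against 107 in SRP1, 161 in SP3, 88.6 in S207, 118 in SP7 and 435 in S242. The resistant lines had 252 in RP6, 259 in R221, 335 in R206, 335 in RP8 and 618 in R202. The 2 lines lay below all others and R202, with the lowest share, was the highest. The pectin lyase-like gene AT5G47500 had 16.1 CPM in S205 and 35.8 CPM in SP9, against 72.4 to 157 CPM in the 5 others, and the thaumatin-family gene AT1G73620 had 1.42 CPM in S205 and 3.52 CPM in SP9, against 9.38 to 33.5 CPM. The Argonaute-family locus AT5G21150 had the largest difference (-2.87), yet it was at 18.9 CPM in SP3, 15.5 in SP7, 18.4 in RP8 and 22.6 in R202 as well as in S205 and SP9, and at 276 to 687 CPM in the other 6 lines. It therefore split the lines in 2 and did not follow the ranking, and the same held for PSBQ1 above with other lines. The other 8 lower loci, AT4G12480, AT1G22530, AT4G29030, AT2G20800, AT4G08950, AT1G22650, AT4G15920 and AT1G11600, had differences of -2.77 to -1.92. AT4G15920 also split the lines, with 0.975 to 2.16 CPM in S205, SP9, SP3, SP7 and RP8 and 5.16 to 17.5 CPM in the rest. S205 differed from its own cross by only -0.28 in AT1G22530 and -0.37 in AT2G20800. AT1G22530 was highest in SRP1 (117 CPM) and SP7 (99.4 CPM).

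S205 and SP9 come from different crosses, so each could be set against its own susceptible sisters with no library in common. Over 16051 loci, the difference of S205 from S207 and S242 and that of SP9 from SP3, SP7 and SRP1 had a correlation across loci of 0.51 (Spearman 0.63), and 74.9% of loci had the same sign. Loci are not independent, and both lines had been picked for the same high share. Of 1707 loci past 2-fold in S205 and 686 in SP9, 302 were past it in both in the same direction, which is 17.7% of the first list and 44.0% of the second, and 37 in opposite directions. Photorespiration, the photosystems, mitosis and the ribosomal proteins lay on the shared diagonal, with S205 further out in photorespiration (1.399 against 0.56 in SP9) and mitosis (-1.25 against -0.42) and both about equal in ribosomal proteins (-0.84 against -0.69). S205 was also further out in the Calvin cycle (1.06 against 0.49), in starch and sucrose metabolism (0.80 against 0.39) and in the stomatal lineage (-0.64 against -0.28). The contrast in share was unequal too: S205 had 6.62%, against 4.34% in S207 and 3.49% in S242. SP9 had 5.17%, against 4.60% in SRP1, 4.39% in SP3 and 4.21% in SP7. None of these differences between the 2 lines was tested.

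**Figure D4:**
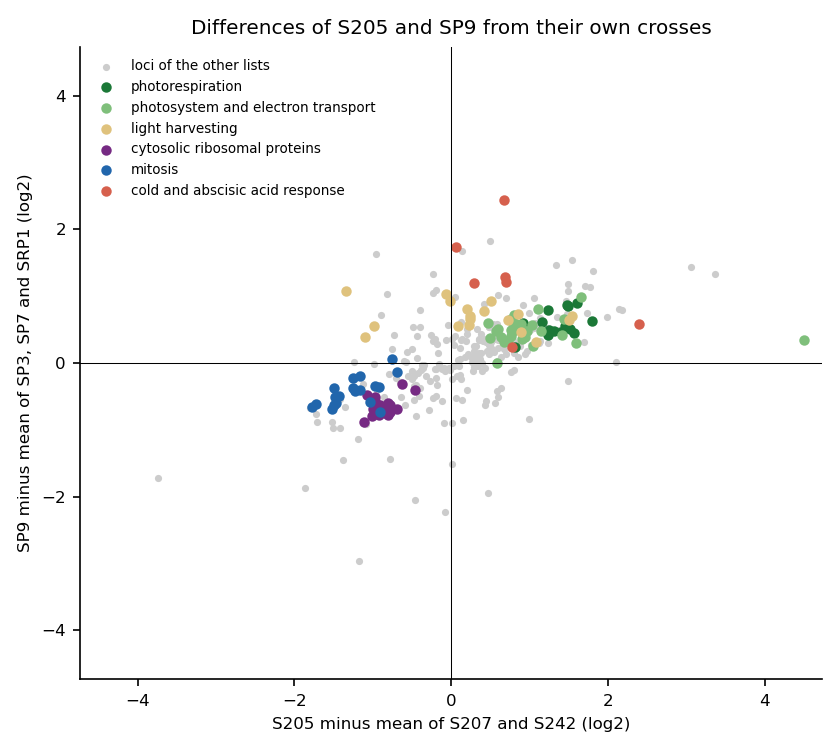
Log2 difference of S205 from the mean of S207 and S242 (horizontal) and of SP9 from the mean of SP3, SP7 and SRP1 (vertical) for the measured loci of all lists (1 point per locus, 6 lists coloured). Photorespiration lies at the upper right and mitosis and ribosomal proteins at the lower left; several light-harvesting loci lie at the upper left, and PSBQ1 is the point at 4.50 on the horizontal axis.

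Correlation with the share over all 12 lines, after subtracting the mean of each of the 4 groups of cross and phenotype, was at least 0.8 for 3077 contigs (9.82%) and at most -0.8 for 2829 (9.03%), and for 1964 (12.2%) and 1801 (11.2%) loci. These figures are a description, since the share defines the ranking and takes part in every library's total. S205 holds 55.7% of the within-group spread of the share, S242 30.1% and SP9 5.73%, so the correlations are mainly those of cross A susceptible lines. Without S205 alone the contig counts were 1840 and 1221. Without S205 and SP9, 96.1% of the positive loci kept their sign and 28.6% stayed at 0.8 or above (median 0.68), and of the negative loci 95.2% kept their sign and 14.4% stayed at -0.8 or below (median -0.56). These loci had been picked by r over 12 lines that include the same 10, S242 among them. Keeping the sign follows in part from that choice, so nothing is read from these percentages.

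The lists differed in how far they depended on the 2 lines. Calvin cycle loci had a median r of 0.94, and 0.89 without S205 and SP9, photorespiration 0.94 and 0.82, the photosystems 0.87 and 0.76, and starch and sucrose metabolism 0.86 and 0.69. For mitosis the median was -0.94, and -0.54 without them, for DNA replication -0.83 and -0.66, and for growth regulators -0.81 and -0.48. Ribosomal proteins (-0.78, and -0.14 without the 2 lines) and the stomatal lineage (-0.87 and -0.16) kept little of it, and neither did abscisic acid (0.53 and 0.11), salicylic acid (0.64 and 0.00) or jasmonate (0.46 and -0.30). The medians of the photosynthetic and mitotic lists kept their sign among the 10 remaining lines. There S207 and S242 hold 35.0% of the spread each. The values over 10 lines thus rest mainly on the difference between these 2 libraries. The lists were also chosen with earlier results of these data known, so these medians are a description only. Calculated in cross A and in cross B alone, the median r was 0.94 and 0.98 in the Calvin cycle, -0.95 and -0.91 in mitosis and -0.79 and -0.93 in ribosomal proteins. Over all loci, r in the 2 crosses had the same sign in 75.5%.

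**Figure D5:**
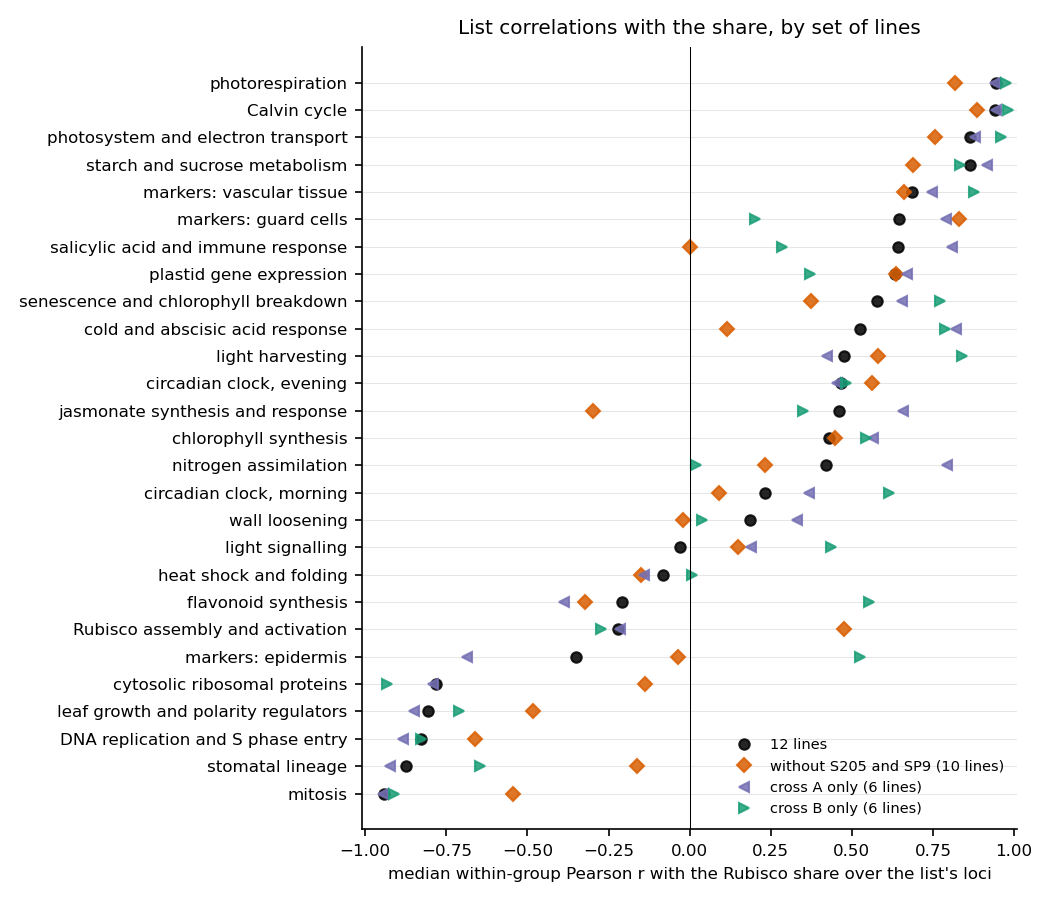
Median over loci of the within-group Pearson correlation with the Rubisco small chain share for each list, over 12 lines (black), without S205 and SP9 (orange), in cross A alone (6 lines, left-pointing) and in cross B alone (6 lines, right-pointing). Calvin cycle loci stay at 0.89 without the 2 lines, whereas ribosomal proteins go to -0.14 and jasmonate to -0.30.

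Among loci outside the lists with at least 5 CPM on average, those with the pattern most like the share over the 12 lines had r of 0.98 to 0.99. The solanesyl diphosphate synthase gene AT1G17050, for an enzyme of plastoquinone synthesis, had 65.8 CPM in S205 and 45.3 CPM in SP9, against 36.3 in SRP1, 36.3 in SP3, 37.1 in S207, 34.5 in SP7 and 29.2 in S242. The gene annotated as PPDK regulatory protein, AT4G21210, had 68.0 CPM in S205 and 42.7 CPM in SP9, against 16.3 to 32.8 CPM in the 5 others. In each cross the susceptible lines stood in the order of their share for both, with SRP1 and SP3 nearly level in AT1G17050. The other 6 were AT5G01410, AT1G60710, AT1G70730, AT2G32150, AT1G54520 and AT1G62260. Of the 8 loci most opposite to the share (r = -0.99 each), centromere protein C (AT1G15660), which anchors the kinetochore, had 12.6 CPM in S205 and 16.9 CPM in SP9, against 20.0 in SRP1, 22.6 in SP3, 20.7 in S207, 22.9 in SP7 and 26.3 in S242. The receptor kinase gene AT3G51740 had 22.7 CPM in S205 and 37.8 CPM in SP9, against 60.1 to 114 CPM in the 5 others. The other 6 were AT2G28620, AT3G10310, AT4G28430, AT1G16630, AT2G25060 and AT1G34355.

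The share also differed between the phenotypes, with 3.55% ± 0.152 in resistant lines (SD, n = 5) and 4.69% ± 0.987 in susceptible lines (SD, n = 7), and cross and phenotype together accounted for 39.0% of its variance. A comparison of resistant with susceptible lines therefore carries part of the ranking. With limma on log2(CPM + 0.5), cross as a covariate and Benjamini-Hochberg adjustment over all contigs, 0 of 31337 contigs (0%) passed an adjusted p of 0.05, with 2511 at an unadjusted p under 0.05, while edgeR on the recovered reads called 3 and DESeq2 84. With the share as a further covariate limma called 0 (0%), with 2444 unadjusted, and edgeR 0. Without S205 and SP9 it called 3 of 30751 (0.00976%), all lower in resistant lines and all contigs of AT5G46400, a tetratricopeptide repeat protein gene. No resistant line had more than 0.301 CPM of these 3 contigs. They thus passed the filter of 1 CPM in 5 libraries only through the susceptible lines, where they are high. Their calls are therefore not read as support for a difference. Leaving out 1 line at a time, limma called 2 contigs without RP8, 2 without S242 and 4 without SP9, and 0 without each of the other 9 lines.

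The list medians between phenotypes moved with the share, which these lists were already known to follow. Photorespiration contigs had a median resistant minus susceptible difference of -0.39, which was 0.21 with the share in the model and -0.10 without S205 and SP9. Photosystem contigs had -0.28, then 0.16 and -0.08, and Calvin cycle contigs -0.23, then 0.24 and -0.01. Mitotic contigs had 0.46, then -0.07 and 0.17, stomatal contigs 0.32, then -0.01 and 0.16, and ribosomal protein contigs 0.11, then -0.27 and -0.11. No contig of any list passed the limma test in the 3 fits, and the medians over all contigs lay within 0.01 of 0 in each.

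The leading contigs of the first fit kept their direction in all 3 fits. The leading contig was one of IAA2 (AT3G23030), a repressor of auxin response that 2,4-D causes to be degraded. It had 2.49 CPM in RP6, 2.79 in R221, 2.78 in R206, 2.24 in RP8 and 2.77 in R202, against a lowest value of 5.33, a median of 10.3 and a highest of 11.98 CPM in the 7 susceptible lines. The phenotypes did not overlap, and S242, the susceptible line with the lowest share, was the lowest of the 7. Its difference was -1.66 ± 0.182 (SE; limma adjusted p = 0.05002), -1.34 ± 0.182 with the share in the model (adjusted p = 0.239) and -1.54 ± 0.191 without S205 and SP9 (adjusted p = 0.133). Another IAA2 contig, also among the 3 smallest p of the first fit, had a smaller difference of -1.15 ± 0.161 (SE, limma adjusted p = 0.141). With the share it was -0.89 ± 0.165 (limma adjusted p = 0.239), and without S205 and SP9 -1.05 ± 0.170 (limma adjusted p = 0.612). A contig of AT5G46400 averaged 0.109 ± 0.0613 CPM in resistant lines (SD, n = 5) and 1.35 ± 0.440 CPM in susceptible lines (SD, n = 7). No resistant line reached the 1 CPM of the filter in it, and SP9, at 0.458 CPM, was the lowest of the susceptible lines. The contig's difference was -1.60 ± 0.194 (SE, limma adjusted p = 0.0654), -1.63 ± 0.257 with the share (limma adjusted p = 0.239) and -1.67 ± 0.117 without S205 and SP9 (limma adjusted p = 0.00188). The last of these fits leaves out SP9, the lowest susceptible line. With the share in the model, contigs of AT1G29700 and AT3G05936 also came among the 3 smallest p, with differences of 0.74 ± 0.0962 and 0.66 ± 0.0975 (SE; limma adjusted p = 0.239 each), against 0.07 and 0.02 without it. In both, S205 and SP9 had the highest values of the 12 lines.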

How the data were processed

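Leaf RNA of 12 lines was sequenced, 1 library per line. The deposited expression table lists 33277 contigs of 2 assemblies as read coverage signal, CPM on a scaled library size, which the authors computed from reads per contig. Bowtie2, SAMtools 1.3.1, edgeR, R 3.3 and TAIR10 are named in the submitters' processing notes, with no role given, and the sources used here give no aligner settings. Multiplying by the reads behind 1 step of each column gave whole numbers, within 0.1, for 99.9992% of values. CPM had been assumed when the tests were chosen, and limma was kept. edgeR on the recovered reads called 3 contigs. The authors' deposited comparison of resistant with susceptible lines, with log2 fold changes and p-values, was not used for any result.

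Contigs that reached 1 CPM in 5 or more libraries were kept, CPM was summed per Arabidopsis locus from the deposited annotation, and log2(CPM + 0.5) was analysed. Correlations with the share used values centred on the means of the 4 groups of cross and phenotype. Everything that uses the share or the contrast of S205 and SP9 is a description with no test. Phenotypes were compared with limma (intensity-dependent trend, cross as covariate, Benjamini-Hochberg over all contigs). Lines of a cross and phenotype served as replicates, and their number of plants is not given, so p-values measure the spread between these libraries. Alternatives covered scaling, pseudocount, filter, unit, centring, lines left out, edgeR and DESeq2.

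The members and the 28 gene lists (427 loci, 367 of them measured) were chosen with earlier results of these data known. Named were up to 5 loci per list with the largest within-cross differences (mean of at least 1 CPM). Outside the lists, up to 12 loci per direction with the largest difference and up to 8 with the strongest correlation (mean of at least 5 CPM) were named, and so were the contigs with the smallest p. BSD2, CPN60B1, LHCB1.1, LHCB1.3, LHCB1.4, LHCB2.3, FBA3, HEMC, CDKB1;1, CDKB2;1, MUTE, FAMA, EPFL9, BFN1 and XCP1 were named with their values known. The scripts were tested on simulated data. Python 3.11.15, numpy 2.4.6, pandas 2.3.3, scipy 1.17.1, matplotlib 3.10.9, R 4.3.3, limma 3.58.1, edgeR 4.0.16 and DESeq2 1.42.0 were used.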

Additional observations from a re-analysis of the deposited data

Results flagged for a closer look

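Only the susceptible lines of cross B form a group of at least 4 libraries, so outlying values were looked for there, in 203 measures, and 21 had 1 line far from the other 3. Chance flags about 1 in 20 groups, but SP9 had been picked for its share and most of the measures are loci picked for the difference of S205 and SP9 from other lines, so the number of flags, and how often SP9 is the line, follow in part from that choice and are not to be set against that rate. No explanation was weighed.

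The values in which SP9 stood apart come first. The score of a list is the median over its loci of log2(CPM + 0.5) minus the mean of the 5 other susceptible lines. That of the growth and polarity regulators was -0.60 in SP9, against -0.14 to -0.10 in SRP1, SP3 and SP7, and that of the vascular markers was 0.59 in SP9, against 0.09 to 0.12. Among regulators of young leaves, SP9 had 5.70 CPM of SPCH, against 11.0 to 12.1 CPM in the other 3, 0.721 CPM of AS2, against 1.79 to 1.99 CPM, 4.103 CPM of GRF2, against 9.27 to 9.88 CPM, and 1.04 CPM of GRF3, against 2.3 to 2.51 CPM. GL1, which starts leaf hairs, stood at 0.153 CPM in SP9, against 1.59 to 1.73 CPM. CER6, a gene of wax synthesis, was at 35.0 CPM in SP9, against 16.6 to 17.9 CPM. The abscisic acid genes RAB18, with 62.6 CPM in SP9, against 9.35 to 15.3 CPM, and HAI1, with 7.34 CPM, against 1.79 to 1.92 CPM, also set it apart.

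Outside the lists, SP9 had 45.6 CPM of AT2G05440, against 5.01 to 11.7 CPM in the other 3 lines. AT5G42530 was at 140.0 CPM in SP9, against 3.46 to 26.4 CPM, and AT5G37300 at 102 CPM, against 6.47 to 19.3 CPM. AT1G52342 was at 19.9 CPM in SP9, against 2.00 to 4.69 CPM, AT5G59310 at 370.3 CPM, against 23.8 to 58.7 CPM, and AT1G62510 at 296.5 CPM, against 39.7 to 52.1 CPM. AT1G17050 had 45.3 CPM in SP9, against 34.5 to 36.3 CPM, and AT1G22650 was lower, with 1.399 CPM, against 7.01 to 7.48 CPM. SRP1 was the outlying line in AT5G21150 (288 CPM, against 15.5 to 18.9 CPM in the other 3) and AT4G15920 (10.1 CPM, against 0.975 to 1.97 CPM), and SP3 in the defence gene PR1 (31.5 CPM, against 14.9 to 15.9 CPM).

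In 7 of 201 measures S205 and SP9 lay on opposite sides of the other susceptible lines of their own cross; these differences between the crosses were not tested. The epidermal score was 0.0265 in S205, against 0.14 and 0.15 in the other 2 susceptible lines of cross A, and 0.085 in SP9, against -0.20 to -0.00 in cross B. The guard cell score was 0.54 in S205, against -0.42 and 0.38, and -0.12 in SP9, against -0.09 to 0.18. KAT1, a potassium channel of guard cells, had 33.9 CPM in S205, against 15.5 and 32.9 CPM, and 18.8 CPM in SP9, against 22.0 to 29.1 CPM. GASA9 had 25.7 CPM in S205, against 10.1 and 16.1 CPM, and 15.1 CPM in SP9, against 25.0 to 31.3 CPM. The nitrate transporter gene NRT2.1 had 2.03 CPM in S205, against 1.15 and 1.52 CPM, and 0.0678 CPM in SP9, against 1.198 to 2.404 CPM. The clock-related factor CDF1 had 1.91 CPM in S205, against 2.31 and 2.33 CPM, and 4.095 CPM in SP9, against 1.235 to 2.63 CPM. The light signalling factor PIF3 had 2.92 CPM in S205, against 3.93 and 7.07 CPM, and 4.63 CPM in SP9, against 3.76 to 4.22 CPM.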

How the results depend on the processing

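No paired analysis was possible because the labels give the lines no shared replicate numbers. Counts of contigs higher and lower in S205 and SP9 (5484 and 5944) were 2958 and 9427 when scaled to equal totals without the small chain contigs. They were 3319 and 3538 per locus, and 5759 to 9842 and 6302 to 10145 with 1 line left out. Counts at r of at least 0.8 and at most -0.8 (3077 and 2829) were 1385 and 6597 in that scaling, 1964 and 1801 per locus, 1766 and 1773 by Spearman correlation, 2040 and 1684 with phenotype means subtracted, 1988 and 1740 without centring, 1378 and 843 without S205 and SP9, 5025 and 4727 in cross A alone, 4748 and 5090 in cross B alone, and 1840 to 3935 and 1221 to 4197 with 1 line left out. Contigs called between phenotypes (0) were 3 without S205 and SP9, 1 with no covariate, 2 at a pseudocount of 0.1, 3 with edgeR, 84 with DESeq2 (43 higher and 41 lower, of which 1 was a list member) and 0 to 4 with 1 line left out. Apart from effects of fewer lines or contigs, the cause was not tested. Of 378 list median differences under the alternatives, 34 moved beyond the spread of the 5 other susceptible lines, and of 513 list median correlations 25 moved beyond the spread over loci. Medians past 0.3 (16 lists) or 0.5 in correlation (15 lists), limits set after seeing the values, did not change sign. With contigs in place of locus sums, chlorophyll synthesis went to -0.08 and nitrogen assimilation to -0.13. Single crosses, edgeR with the share and S205 and S242 left out were added after seeing the data. The correlation of the S205 and SP9 differences over contigs was 0.38, and 0.29 to 0.51 under 4 added alternatives.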
